A study of Mus musculus with 18 samples.

Results

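The 9 genes described here encode receptors through which nerves and local signals drive the lacrimal gland (LG) to secrete: the muscarinic acetylcholine receptors Chrm1 and Chrm3, the alpha-1 adrenergic receptors Adra1a and Adra1b, the receptors for vasoactive intestinal peptide (VIP) Vipr1 and Vipr2, and the receptors for extracellular ATP P2rx4, P2rx7 and P2ry2. They were chosen by gene symbol, and all 9 were found among the 54232 genes of the count table. Whole LGs of 18 male mice, 1 gland per mouse, were profiled by bulk RNA-seq at 3 ages, namely 2 months (2M), 4 months (4M) and 6 months (6M), with 3 mice in each of the 6 groups. The controls were BALB/c mice of the BALB/cJ line. NOD.H-2b mice (NOD.B10Sn-H2b/J), which carry the H2b haplotype on the NOD background, are a model of primary Sjögren's syndrome, and neither strain received a treatment. The strains differ across their whole genomes, so a difference between them is not that of a single allele, and BALB/c is a control strain rather than a littermate control.

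Fluid and protein secretion by the LG is driven by parasympathetic and sympathetic nerves. In general, acetylcholine on Chrm1 or Chrm3, noradrenaline on alpha-1 receptors and ATP or UTP on P2Y2 signal through Gq. Gq acts through phospholipase C and the release of stored calcium. VIP acting on VPAC receptors couples to Gs and cAMP. Which of these routes acts in these LGs was not measured. The P2X receptors are channels that open on binding ATP and let cations, calcium included, into the cell.

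In GRCm38 with GENCODE M21, Chrm1 lies at chr19:8663789-8683587 (plus strand), Chrm3 at chr13:9875486-10360847 (minus), Adra1a at chr14:66635251-66771168 (plus) and Adra1b at chr11:43774606-43901210 (minus). Vipr1 lies at chr9:121642716-121672954 (plus) and Vipr2 at chr12:116077726-116146261 (plus). P2rx7 (chr5:122643911-122691432, plus) and P2rx4 (chr5:122707544-122729738, plus) are neighbours 16111 bp apart, and P2ry2 lies at chr7:100996568-101012866 (minus). The reads were counted over exons, with no statement on strand. Gm22820 shares 329 bp with a Chrm1 exon on the opposite strand and had at most 4 counts in any mouse, and Mir8115, 119 bp long, lies inside a P2rx7 exon on the same strand. The antisense genes Gm26861 over Chrm3 and Gm20658 over Vipr2 share no exon with them.

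Promoter windows of RefSeq (GRCm38.p6, 250 bases before to 50 bases after a start site) were at hand for 7 of the 9 genes, with Chrm1 and Adra1a not analysed here. The windows of Vipr1, Chrm3 and Vipr2 are shown because Vipr1 and Chrm3 were the receptors with a window that were lower in NOD.H-2b LGs at every age, and because Vipr2 is the near-silent partner of Vipr1 in this tissue. The sequence is that of the reference genome, not that of either strain. Capitals mark the GC box GGGCGG or its reverse complement CCGCCC, found at least once in 35.6% of all 32807 windows.
Vipr1 (chr9:121642466-121642765, plus): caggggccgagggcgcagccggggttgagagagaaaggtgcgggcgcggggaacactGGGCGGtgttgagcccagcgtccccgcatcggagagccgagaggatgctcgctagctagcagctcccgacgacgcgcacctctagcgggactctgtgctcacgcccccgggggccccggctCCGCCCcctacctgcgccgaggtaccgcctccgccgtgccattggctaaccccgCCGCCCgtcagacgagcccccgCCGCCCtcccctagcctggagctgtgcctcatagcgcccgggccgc
Chrm3 (chr13:10360754-10361053, minus): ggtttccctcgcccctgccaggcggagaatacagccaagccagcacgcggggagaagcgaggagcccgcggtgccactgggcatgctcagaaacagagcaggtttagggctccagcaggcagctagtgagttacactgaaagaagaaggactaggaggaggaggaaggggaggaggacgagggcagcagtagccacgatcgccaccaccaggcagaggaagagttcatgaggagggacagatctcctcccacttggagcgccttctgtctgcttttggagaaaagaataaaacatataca
Vipr2 (chr12:116077476-116077775, plus): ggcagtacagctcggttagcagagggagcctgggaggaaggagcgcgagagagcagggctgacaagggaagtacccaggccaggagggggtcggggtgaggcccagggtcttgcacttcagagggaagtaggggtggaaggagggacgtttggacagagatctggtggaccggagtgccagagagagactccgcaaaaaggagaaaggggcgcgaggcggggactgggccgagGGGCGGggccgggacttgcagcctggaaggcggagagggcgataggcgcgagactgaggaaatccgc
The Vipr1 window held 4 GC boxes and 35 CpG dinucleotides, a CpG number that 6.96% of all windows reached, against a median of 7 over all windows. The Vipr2 window held 1 GC box and 18 CpG, and the Chrm3 window held none of these boxes and 11 CpG. A match is a description of the letters and says nothing of which factor binds there.

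The libraries held between 49480781 and 103936830 counts (median 59005987.5), the largest being BALB/c 6M replicate 1. The label of the tissue was checked on marker lists. All 13 measured acinar genes were detected in every group, with a summed level of 48640 to 96020 CPM (counts scaled to library size), whereas the 11 skeletal muscle genes summed to at most 1.57 CPM. The 9 genes of a salivary gland list summed to 2382 to 7151 CPM, nearly all of it from Mucl2 (group means at 2M of 4391 CPM for BALB/c and 5708 CPM for NOD.H-2b, and at 6M of 5732 and 2707 CPM), and Prb1 had no count in any group. That sum was lower in NOD.H-2b at 4M and 6M, without overlap. The study lists Mucl2 among the markers of an acinar cluster in its own spatial LG data. The summed level of the epithelial structure list (40 genes of junctions, keratins and epithelial regulators) at 2M ranged from 3249 to 3298 CPM for BALB/c and 3114 to 3480 CPM for NOD.H-2b. By 6M the ranges were 3417 to 3491 CPM for BALB/c and 2036 to 2459 CPM for NOD.H-2b, so the strains overlapped at 2M and separated at 6M. B cell genes (10 genes) summed to at most 2.98 CPM in BALB/c LGs of any age. In NOD.H-2b they summed to 2.09, 15.6 and 37.2 CPM in the 3 mice at 2M, and to between 187.6 and 587.7 CPM at 4M and 6M. T cell genes (12 genes) summed to at most 8.81 CPM in BALB/c LGs, whereas NOD.H-2b LGs had 12.3 to 43.6 CPM at 2M and 94.0 to 164.3 CPM later. In bulk tissue, fewer cells of a type and less RNA per cell cannot be told apart. The strain and age differences of the receptors were therefore also computed with each library scaled to the epithelial structure list instead of to all genes by TMM. That scaling moved the median log2 fold change of all genes between the strains from 0.01 to -0.05 at 2M, from 0.0003 to 0.40 at 4M and from -0.004 to 0.58 at 6M. With it, calls over all genes went from 4143 higher and 3402 lower to 8064 higher and 949 lower at 4M, and from 5078 higher and 4575 lower to 10821 higher and 962 lower at 6M.

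Of the receptors, 6 were readily measured and the other 3 were near the limit of detection. Levels of different genes were compared as CPM per kb of exon. In BALB/c LGs at 2M, P2rx4 had the highest level at 28.3 ± 1.51 CPM per kb (SD, n = 3), followed by Vipr1 at 13.2, Chrm3 at 6.82, P2rx7 at 5.27, Adra1a at 4.31 and Chrm1 at 1.05 CPM per kb. P2ry2 reached 0.0932 CPM per kb, and Adra1b and Vipr2 0.0127 and 0.00949 CPM per kb. Neighbours in this order did not overlap among the 3 mice, apart from P2rx7 with Adra1a and Adra1b with Vipr2. In NOD.H-2b LGs at 2M, P2rx4 was again first at 28.0 CPM per kb, but P2rx7 (5.59) and Chrm3 (5.24), whose ranges overlapped, came before Vipr1 (4.01), Adra1a (2.51) and Chrm1 (2.02). At 6M the NOD.H-2b order was P2rx4 (22.9), P2rx7 (4.88), Chrm3 (3.96), Vipr1 (2.79), Chrm1 (2.25) and Adra1a (1.57 CPM per kb), with no overlap between neighbours. Vipr1 thus held the second place in BALB/c at each age and the fourth place in NOD.H-2b at each age.

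**Figure D1:**
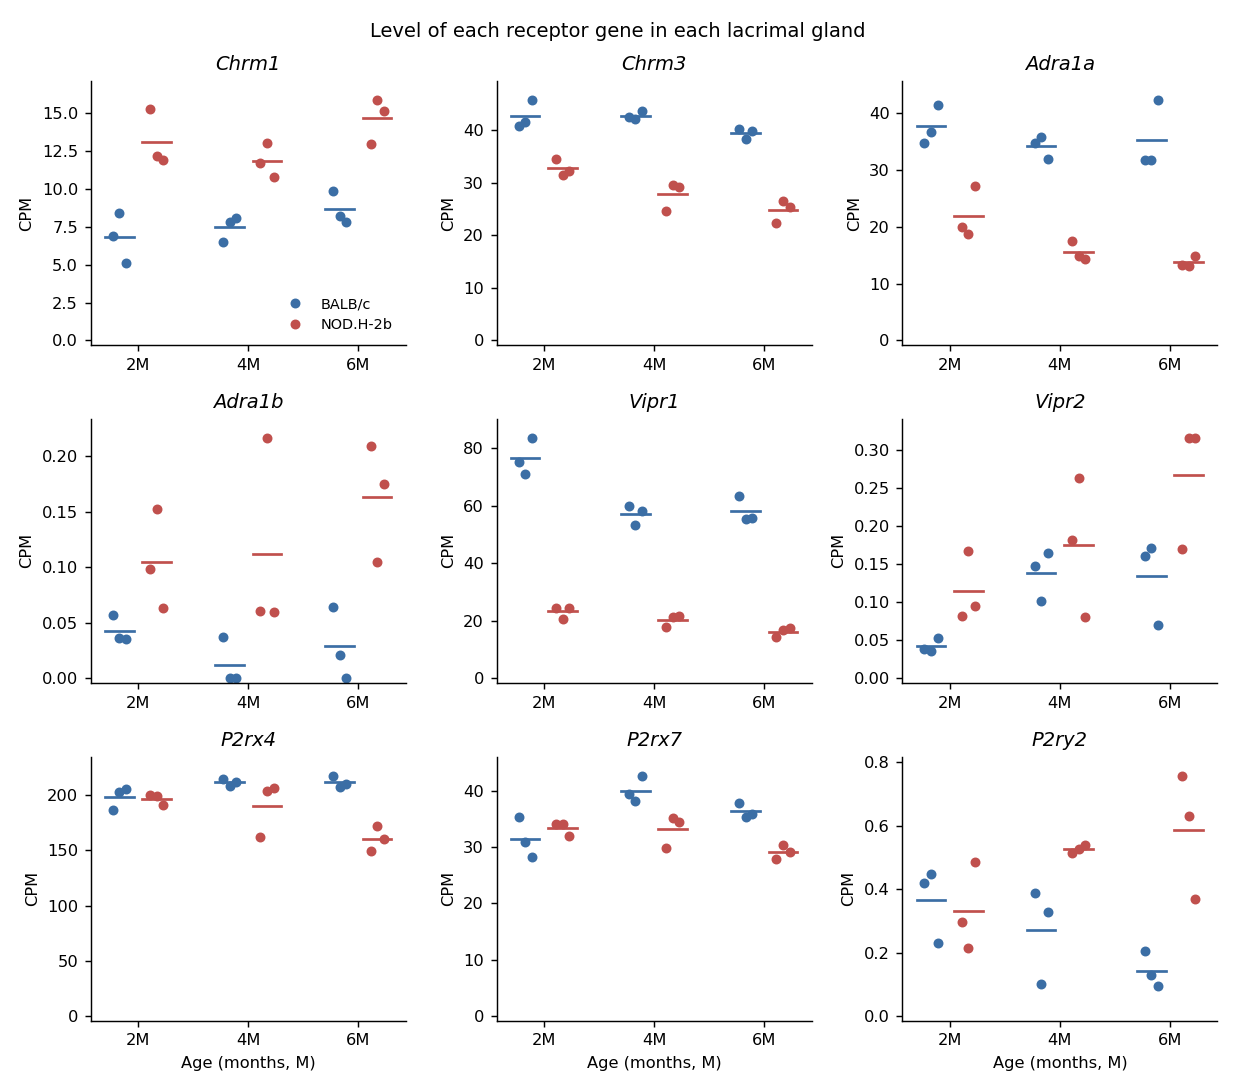
Level in CPM (vertical axis, linear, from 0) of the 9 receptor genes in each LG, by age (horizontal axis) and strain (BALB/c blue, NOD.H-2b red), where dots are mice (n = 3 per group) and bars are group means. Chrm1 lay higher and Chrm3, Adra1a and Vipr1 lay lower in all 9 NOD.H-2b mice than in all 9 BALB/c mice, while Adra1b, Vipr2 and P2ry2 lay below 1 CPM in every mouse. The share of all genes that separate the strains in this way was not computed.

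Whether the strains differ in these receptors was asked at each age with edgeR's quasi-likelihood test on the 6 mice of that age, adjusted by Benjamini-Hochberg over all genes tested. Chrm1 was higher, and Chrm3, Adra1a and Vipr1 were lower, in NOD.H-2b LGs at 2M, 4M and 6M. At 2M, 4 of the 7 receptors tested passed the threshold of 0.05 (1 higher and 3 lower), where 39.8% of all genes tested did (22.5% higher and 17.2% lower). At 4M, 5 of 7 passed (1 higher and 4 lower), against 42.6% of all genes (23.4% higher and 19.2% lower). At 6M, 7 of 8 passed (2 higher and 5 lower), against 54.4% of all genes (28.6% higher and 25.8% lower). The median log2 fold change of the receptors tested was -0.10, -0.27 and -0.32 at 2M, 4M and 6M, beside medians of all genes of 0.01, 0.0003 and -0.004. Adra1b was left out by the filter on low counts at every age, and Vipr2 at 2M and 4M. At 6M P2ry2 and Vipr2 passed it only through the NOD.H-2b mice, and P2ry2 is 1 of the 2 called higher at that age. At 4M P2ry2 would not have passed it without the NOD.H-2b mice. Scaled to the epithelial structure list, 3 were higher at 4M, P2ry2 among them, and 2 lower, where 8064 of 17722 genes were higher and 949 lower. Under that scaling 5 were higher at 6M, P2ry2 and Vipr2 among them, and 2 lower, where 10821 of 17750 genes were higher and 962 lower. These shares rest on 7 or 8 genes, and the calls over all genes were themselves numerous. The share of all genes whose mice did not overlap between the strains was not computed. A lack of overlap is therefore given below as a description of each receptor only.

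**Figure D2:**
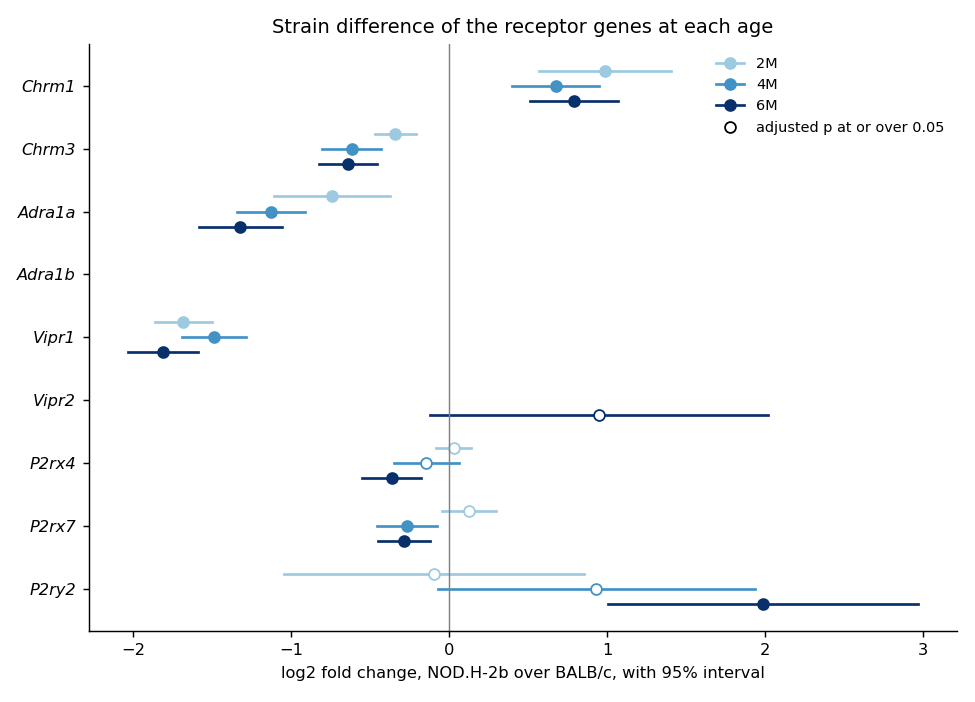
Log2 fold change of NOD.H-2b over BALB/c (horizontal axis) of each receptor gene at 2M, 4M and 6M (light to dark blue), with the 95% interval from edgeR's quasi-likelihood fit of 3 against 3 mice. Open dots mark an adjusted p of 0.05 or more and genes without a dot were not tested, and Vipr1 lies farthest to the left at each age, between -1.49 and -1.81.

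Chrm3, the main muscarinic receptor of exocrine secretion, was lower in NOD.H-2b LGs. At 2M its level was 40.8, 41.5 and 45.7 CPM in the BALB/c mice against 34.5, 31.5 and 32.2 CPM in the NOD.H-2b mice. At 4M it was 42.4, 42.2 and 43.7 CPM in BALB/c against 24.6, 29.5 and 29.2 CPM in NOD.H-2b. By 6M it was 40.2, 38.4 and 39.8 CPM in BALB/c against 22.4, 26.5 and 25.3 CPM in NOD.H-2b. Every NOD.H-2b mouse lay below every BALB/c mouse, and BALB/c mice stayed in a narrow band across ages. In the test, its log2 fold change was -0.34 (SE 0.060, edgeR adjusted p = 0.000885) at 2M, -0.62 (SE 0.084, adjusted p = 0.000298) at 4M and -0.64 (SE 0.083, adjusted p = 0.000126) at 6M. Scaled to the epithelial structure list, it was -0.40 at 2M (adjusted p = 0.000403), -0.23 at 4M (adjusted p = 0.0575) and -0.07 at 6M (adjusted p = 0.523), so that the calls at 4M and 6M were lost.

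Chrm1, the other muscarinic receptor measured in quantity, went the opposite way. Its level at 2M was 6.86, 8.4 and 5.11 CPM in BALB/c against 15.2, 12.1 and 11.9 CPM in NOD.H-2b. The level at 4M was 6.49, 7.82 and 8.04 CPM in BALB/c against 11.7, 13.0 and 10.8 CPM in NOD.H-2b. The level at 6M was 9.84, 8.22 and 7.83 CPM in BALB/c against 12.9, 15.8 and 15.1 CPM in NOD.H-2b. The 9 mice of each strain did not overlap, with 290 to 917 counts behind each BALB/c value and 538 to 990 behind each NOD.H-2b value. The log2 fold change was 0.99 (SE 0.18, edgeR adjusted p = 0.00331), 0.67 (SE 0.12, adjusted p = 0.0017) and 0.79 (SE 0.12, adjusted p = 0.000449) at 2M, 4M and 6M. After scaling to the epithelial structure list it was 0.92, 1.07 and 1.36, and all 3 calls were kept.

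The make-up of the muscarinic pair therefore differed between strains. Per exon length, Chrm1 made up 13.3 ± 3.33%, 14.4 ± 1.31% and 17.4 ± 1.60% of Chrm1 plus Chrm3 in BALB/c at 2M, 4M and 6M (SD, n = 3 each). In NOD.H-2b it made up 27.7 ± 1.91%, 29.2 ± 2.67% and 36.3 ± 0.442%. The highest BALB/c mouse had 19.1% and the lowest NOD.H-2b mouse 26.2%. This share is a ratio within each library and so does not depend on how libraries are scaled.

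**Figure D3:**
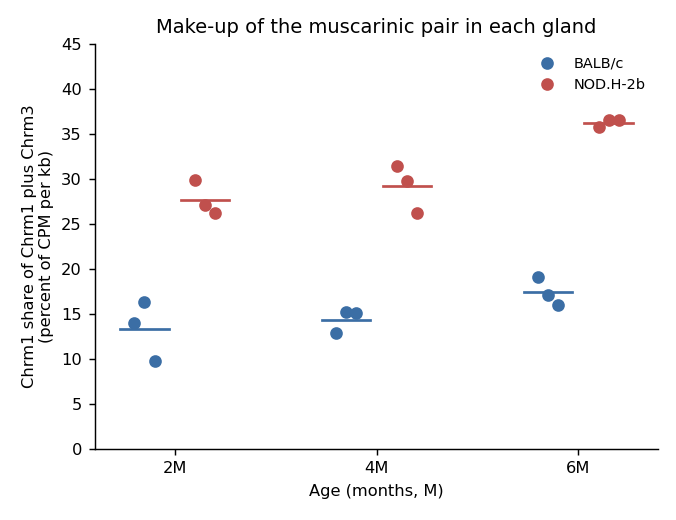
Share of Chrm1 in the sum of Chrm1 and Chrm3 (vertical axis, percent of CPM per kb, from 0) in each LG by age, with dots for mice, bars for the mean of 3 mice, BALB/c in blue and NOD.H-2b in red. The BALB/c mice lay between 9.74% and 19.1% and the NOD.H-2b mice between 26.2% and 36.5%.

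Adra1a, an alpha-1 receptor for noradrenaline, was lower in NOD.H-2b LGs. At 2M the BALB/c mice had 34.8, 36.6 and 41.4 CPM and the NOD.H-2b mice 19.9, 18.6 and 27.1 CPM. At 4M the values were 34.7, 35.8 and 31.9 CPM in BALB/c against 17.4, 14.8 and 14.4 CPM in NOD.H-2b. Those at 6M were 31.8, 31.7 and 42.2 CPM in BALB/c against 13.3, 13.1 and 14.8 CPM in NOD.H-2b. NOD.H-2b 2M replicate 3 stood above the other 8 NOD.H-2b mice and below all BALB/c mice. The log2 fold change was -0.74 (SE 0.15, edgeR adjusted p = 0.00855), -1.13 (SE 0.096, adjusted p = 2.02e-05) and -1.32 (SE 0.12, adjusted p = 9.73e-06) with age, or 1.67-, 2.19- and 2.50-fold lower. Scaled to the epithelial structure list, it was -0.80, -0.72 and -0.74, called at each age.

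Adra1b, a related alpha-1 receptor, was hardly detected. The counts were 3, 2 and 2 in BALB/c against 6, 10 and 4 in NOD.H-2b at 2M, 2, 0 and 0 against 4, 14 and 3 at 4M, and 6, 1 and 0 against 16, 6 and 10 at 6M. The NOD.H-2b mice lay above their age-matched BALB/c controls in CPM, but 2 of the 3 BALB/c groups had no mouse above 3 counts, the floor of detection used here, so no fold is given. Between strains Adra1b was tested only in the fit of all 18 mice, where NOD.H-2b mice carried most of its counts, and its call there is therefore not evidence of its own. Adra1b made up at most 3.90% of Adra1a plus Adra1b per exon length in any mouse.

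Vipr1 encodes VPAC1, a receptor for VIP and PACAP that raises cAMP, and it had the largest strain difference among the receptors tested at 2M and 4M, and the largest fall at 6M, where the difference of the sparsely counted P2ry2 was larger. Its level at 2M was 75.3, 71.2 and 83.6 CPM in BALB/c against 24.5, 20.6 and 24.6 CPM in NOD.H-2b. The level at 4M was 59.8, 53.1 and 58.0 CPM in BALB/c against 17.8, 21.2 and 21.8 CPM in NOD.H-2b. Values at 6M were 63.4, 55.2 and 55.7 CPM in BALB/c against 14.3, 16.9 and 17.4 CPM in NOD.H-2b. The lowest BALB/c mouse (53.1 CPM) was above the highest NOD.H-2b mouse (24.6 CPM) of any age. The log2 fold change was -1.68 (SE 0.081, edgeR adjusted p = 1.22e-07), -1.49 (SE 0.092, adjusted p = 3.05e-06) and -1.81 (SE 0.099, adjusted p = 5.45e-07) with age, or 3.21-, 2.80- and 3.51-fold lower. Scaled to the epithelial structure list, it was -1.74, -1.10 and -1.24, called at each age. Per exon length Vipr1 stood at 1.94 ± 0.079, 1.44 ± 0.081 and 1.59 ± 0.10 times Chrm3 in BALB/c, and at 0.765 ± 0.059, 0.786 ± 0.017 and 0.705 ± 0.031 times Chrm3 in NOD.H-2b (SD, n = 3).

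Vipr2, which encodes VPAC2, had few counts. They were 2, 2 and 3 in BALB/c against 5, 11 and 6 in NOD.H-2b at 2M, 8, 5 and 11 against 12, 17 and 4 at 4M, and 15, 8 and 3 against 13, 18 and 18 at 6M. The strains overlapped at 4M and 6M in CPM. At 6M, the only age at which it passed the filter, the log2 fold change was 0.95 (SE 0.48, 95% interval -0.12 to 2.02, edgeR adjusted p = 0.12), and 1.52 (adjusted p = 0.0159) when scaled to the epithelial structure list. Vipr2 passed the filter at 6M only through the NOD.H-2b mice, so its call under that scaling is not evidence of its own. Vipr2 was at most 2.37% of the VPAC pair per exon length in any mouse.

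P2rx4, a receptor channel for ATP and the most abundant of the 9 per exon length, was at 186, 203 and 206 CPM in BALB/c against 199.9, 199 and 191 CPM in the NOD.H-2b mice aged 2M. At 4M it was at 214, 209 and 212 CPM in BALB/c against 162, 203 and 206 CPM in NOD.H-2b. The level at 6M was 218, 208 and 210.1 CPM in BALB/c against 149.7, 172 and 160.0 CPM in NOD.H-2b. The strains overlapped at 2M and were separate at 4M and 6M, at 4M by little except for NOD.H-2b replicate 1. Its log2 fold change was 0.03 (SE 0.050, edgeR adjusted p = 0.692) at 2M, -0.14 (SE 0.092, adjusted p = 0.241) at 4M and -0.36 (SE 0.084, adjusted p = 0.00444) at 6M, but it turned to 0.24 (adjusted p = 0.0212) at 4M and 0.21 (adjusted p = 0.0146) at 6M when scaled to the epithelial structure list. Both values lay below the median of all genes under that scaling (0.40 and 0.58).

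P2rx7, the ATP-gated channel that also acts on immune cells, was at 35.3, 30.9 and 28.2 CPM in BALB/c against 34.0, 34.1 and 31.9 CPM in the NOD.H-2b mice aged 2M. At 4M it was at 39.4, 38.1 and 42.6 CPM in BALB/c against 29.7, 35.1 and 34.4 CPM in NOD.H-2b. The level at 6M was 37.8, 35.4 and 35.8 CPM in BALB/c against 27.8, 30.3 and 29.1 CPM in NOD.H-2b. The strains overlapped at 2M and not at 4M and 6M. With age, its log2 fold change was 0.13 (SE 0.078, edgeR adjusted p = 0.23), -0.27 (SE 0.085, adjusted p = 0.0273) and -0.28 (SE 0.073, adjusted p = 0.00815). It turned to 0.12 (adjusted p = 0.32) at 4M and 0.29 (adjusted p = 0.0142) at 6M when scaled to the epithelial structure list. Both of these values lay below the median of all genes under that scaling (0.40 and 0.58). The call at 4M was lost without BALB/c replicate 1 (adjusted p = 0.0706) or replicate 3 (adjusted p = 0.115) or NOD.H-2b replicate 1 (adjusted p = 0.0602), and P2rx7 at 2M was called without BALB/c replicate 1 (0.21, adjusted p = 0.0434). The ratio of P2rx4 to P2rx7 per exon length, free of the scaling, ranged from 4.5 to 5.43 over the group means.

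P2ry2, the Gq-coupled receptor for ATP and UTP, was low but counted in every mouse. The counts were 22, 25 and 13 in BALB/c against 18, 14 and 31 in NOD.H-2b at 2M, 21, 5 and 22 against 34, 34 and 27 at 4M, and 19, 6 and 4 against 58, 36 and 21 at 6M. As CPM, NOD.H-2b lay above BALB/c at 4M and 6M without overlap, and the strains overlapped at 2M. For P2ry2 the log2 fold change was -0.10 (SE 0.43, edgeR adjusted p = 0.885) at 2M, 0.93 (SE 0.45, adjusted p = 0.124) at 4M and 1.99 (SE 0.44, 95% interval 1.01 to 2.97, adjusted p = 0.00352) at 6M. When scaled to the epithelial structure list it was 1.32 at 4M (adjusted p = 0.0403), now called, and 2.59 at 6M (adjusted p = 0.000624). At 6M P2ry2 passed the filter on low counts only through the NOD.H-2b mice, and at 4M it would not have passed without them. Its calls at 4M and 6M are therefore not evidence of their own. The B cell and T cell sums given above were highest in the NOD.H-2b groups at 4M and 6M, and their part in the P2ry2 level was not tested.

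**Figure D4:**
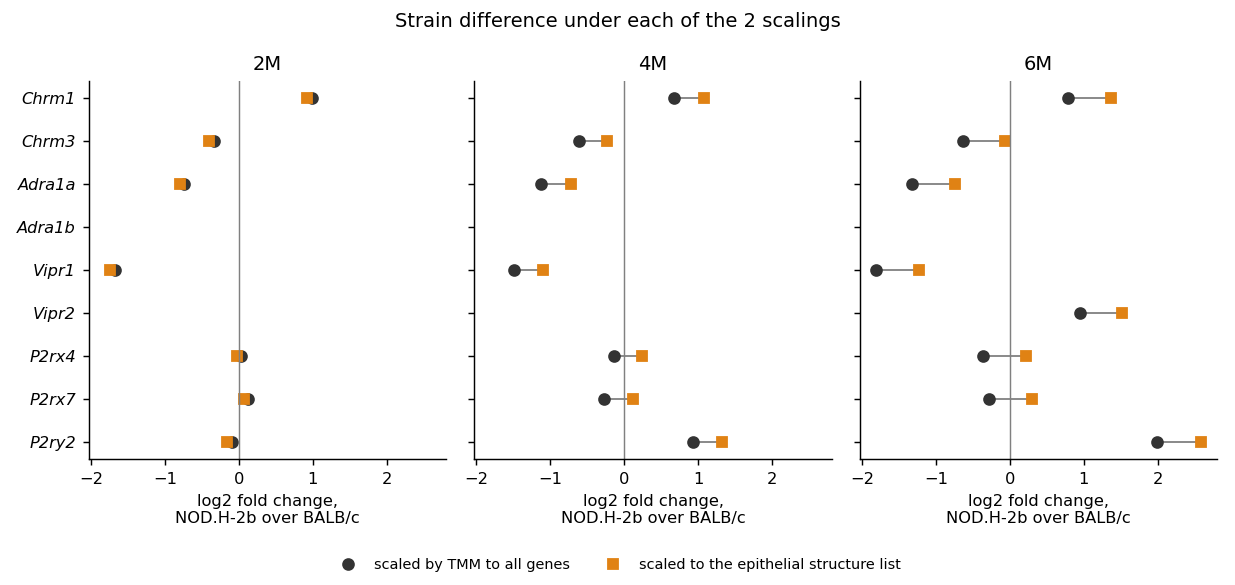
Log2 fold change of NOD.H-2b over BALB/c (horizontal axis, same range in each panel) for each receptor gene at 2M, 4M and 6M, with libraries scaled by TMM to all genes (black dots) or to the epithelial structure list (orange squares). The scalings gave nearly the same values at 2M, while at 4M and 6M P2rx4 and P2rx7 crossed 0 and Chrm1, Adra1a and Vipr1 kept their side.

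Averaged over the 3 ages in the fit of all 18 mice, all 9 receptors passed the test (4 higher and 5 lower), where 65.5% of all genes did (32.5% higher and 33.1% lower). The averages were -1.69 (SE 0.057) for Vipr1, -1.09 (SE 0.078) for Adra1a, -0.56 (SE 0.044) for Chrm3 and 0.79 (SE 0.088) for Chrm1, with edgeR adjusted p of 1.15e-14, 2e-09, 1.69e-09 and 2.51e-07. For P2ry2 the average was 0.92 (SE 0.26, adjusted p = 0.00492). For P2rx4 and P2rx7 it was -0.19 (SE 0.045) and -0.17 (SE 0.046), and both turned positive (0.14 and 0.16) when scaled to the epithelial structure list. For Vipr2 it was 0.89 (SE 0.31, adjusted p = 0.018), a call that was lost without NOD.H-2b 2M replicate 2 (adjusted p = 0.0534) and, at an adjusted p of 0.05, without NOD.H-2b 4M replicate 2. Vipr2 and Adra1b are near the floor and passed the filter on low counts in this fit only through NOD.H-2b mice. Their calls, which are part of the 9 and of the 4 higher, are therefore not evidence of their own.

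Whether the strain difference changed from 2M to 6M was tested as the difference of the differences. It was called for 4 of 9 receptors with TMM scaling (1 up and 3 down), against 16.1% of all genes. When scaled to the epithelial structure list, 4 were called up and none down, and the share of all genes under that scaling is not given here. With TMM scaling the change was -0.57 (SE 0.19, edgeR adjusted p = 0.0486) for Adra1a, -0.38 (SE 0.11, adjusted p = 0.0246) for P2rx4, -0.40 (SE 0.11, adjusted p = 0.0224) for P2rx7 and 2.10 (SE 0.65, adjusted p = 0.0366) for P2ry2. For Chrm3 it was -0.29 (adjusted p = 0.0678), for Vipr1 -0.12 (95% interval -0.41 to 0.16, adjusted p = 0.578) and for Chrm1 -0.19 (95% interval -0.64 to 0.26, adjusted p = 0.588). Scaled to the epithelial structure list, the changes of Adra1a, P2rx4 and P2rx7 turned to 0.058, 0.24 and 0.23, Chrm3 and Vipr1 to 0.34 and 0.51, and P2ry2 was 2.76. No receptor was called without NOD.H-2b 2M replicate 1 or without NOD.H-2b 6M replicate 1, 1 was called without BALB/c 2M replicate 1, and 2 were called without BALB/c 2M replicate 2 or BALB/c 6M replicate 3. From 2M to 4M, no receptor was called by edgeR (2 had an unadjusted p under 0.05, 1 was called by DESeq2), against 1.67% of all genes.

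Within BALB/c, Vipr1 was lower at 4M and 6M than at 2M. It fell by 0.42 on the log2 scale (SE 0.064, edgeR adjusted p = 0.0015) from 2M to 4M, and its log2 fold change from 2M to 6M was -0.41 (SE 0.073, adjusted p = 0.00994). From 2M to 4M P2rx7 rose by 0.35 (SE 0.078, adjusted p = 0.0167), a call that was lost without BALB/c 2M replicate 2 (adjusted p = 0.069) or replicate 3 (adjusted p = 0.0512) and under scaling to the epithelial structure list (0.22, adjusted p = 0.103). These 2 of 7 receptors stand beside 11.1% of all genes called from 2M to 4M, and the 1 of 7 from 2M to 6M beside 5.61%. Adra1a was called lower from 2M to 4M when scaled to the epithelial structure list (-0.27, adjusted p = 0.00958) and from 2M to 6M without BALB/c 6M replicate 3 (-0.26, adjusted p = 0.023). From 4M to 6M none was called by edgeR (2 of 7 had an unadjusted p under 0.05, and DESeq2 called none), against 0.307% of all genes.

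Within NOD.H-2b, 5 of 8 receptors tested were lower at 6M than at 2M with TMM scaling, where 40% of all genes were called. When scaled to the epithelial structure list, 5 of the 8 were called higher and none lower. The share of all genes called under that scaling is not given here, so these calls cannot be told apart from a shift of all genes. With TMM scaling the log2 fold change was -0.69 (SE 0.14, edgeR adjusted p = 0.00702) for Adra1a, -0.54 (SE 0.10, adjusted p = 0.00432) for Vipr1, -0.42 (SE 0.082, adjusted p = 0.00468) for Chrm3, -0.31 (SE 0.082, adjusted p = 0.0163) for P2rx4 and -0.21 (SE 0.069, adjusted p = 0.0356) for P2rx7. Scaled to the epithelial structure list, whose summed level itself was lower at 6M, Adra1a was -0.12 (adjusted p = 0.507), and Chrm3 and Vipr1 turned to 0.14 and 0.025 without a call. Under that scaling P2rx4 and P2rx7 turned to 0.25 (adjusted p = 0.0123) and 0.35 (adjusted p = 0.0105), both called higher. Chrm1, Vipr2 and P2ry2, which had been at 0.15, 1.16 and 0.81 without a call, were also called higher under it, at 0.71 (adjusted p = 0.00116), 1.70 (adjusted p = 0.0137) and 1.39 (adjusted p = 0.0194). Vipr2 would not have passed the filter on low counts without the 6M mice, so its call is not evidence of its own. Chrm3, Adra1a and Vipr1 were called without any 1 of the mice, while P2rx4 was lost without any 1 of the NOD.H-2b 2M mice or without NOD.H-2b 6M replicate 3 (adjusted p of 0.0577 to 0.0693). The call of P2rx7 was lost without the same 4 mice or NOD.H-2b 6M replicate 1 (adjusted p of 0.0708 to 0.133), in 1 fit of all 18 mice (adjusted p = 0.0552) and with the DESeq2 Wald test (adjusted p = 0.0686). From 2M to 4M none of 8 was called by edgeR (2 had an unadjusted p under 0.05, and DESeq2 called Adra1a), against 15.8% of all genes. From 4M to 6M none of 9 was called (2 had an unadjusted p under 0.05, and DESeq2 called none), against 0.00555%.

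Genes that followed each receptor most closely across the 18 mice were searched among protein-coding genes whose mean log2 CPM reached 1. For Vipr1 they were Strbp (Pearson's r of log2 CPM 0.987) and Slc25a23 (r = 0.986), for Chrm3 Tom1 (r = 0.983) and Plin3 (r = 0.981), and for Adra1a Gne and Tmem131 (both r = 0.976). For Chrm1 they were Klf6 (r = 0.935) and Hspb8 (r = 0.931), for P2rx4 Myo5c (r = 0.946) and Fam241b (r = 0.944), and for P2rx7 Ehhadh (r = 0.893) and Lrrc75b (r = 0.872). For Adra1b they were Ctbs (r = 0.885) and Trim24 (r = 0.884), for Vipr2 Phyh (r = 0.836) and Snx1 (r = 0.826), and for P2ry2 Cacna1c (r = 0.813) and Pqlc2 (r = 0.807). On deviations from the group means r was 0.817 for Vipr1 with Strbp, 0.677 for Chrm3 with Tom1, 0.633 for Adra1a with Gne and 0.530 for Chrm1 with Klf6. Over all these pairs it ranged from 0.39 (P2ry2 with Pqlc2) to 0.858 (Chrm3 with Plin3). Among the receptors, Chrm3 and Vipr1 had r = 0.951 over the 18 mice and 0.815 on deviations from group means, while Chrm3 and Adra1a had 0.925 and -0.106. These are descriptions over mice that share strain, age and library scaling.

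The other receptors of the same families were mostly low, and those of P2Y type were largely higher in NOD.H-2b LGs. Of 23 such genes, 13 were tested at each age, with 5 higher and 2 lower at 2M, 7 higher and 3 lower at 4M and 8 higher and 4 lower at 6M (8 higher and 1 lower when scaled to the epithelial structure list). Their median log2 fold change was 0.65, 1.52 and 2.32. For this list and those that follow, the shares of all genes tested were 22.5% higher and 17.2% lower at 2M. The shares were 23.4% and 19.2% at 4M, and 28.6% and 25.8% at 6M. Scaled to the epithelial structure list, 8064 of 17722 genes were higher and 949 lower at 4M, and 10821 of 17750 and 962 at 6M. P2ry10 (log2 fold change 4.39, 4.75 and 6.23 with age), P2ry12 (2.34, 1.97 and 2.45), P2ry13 (1.86, 2.42 and 2.87), P2ry14 (1.40, 1.83 and 2.64) and P2ry6 (1.61, 1.52 and 2.32) were called at each age, with edgeR adjusted p of 0.0273 or less. At 2M the call of P2ry10 was lost without BALB/c replicate 3 (adjusted p = 0.0726), and that of P2ry13 without BALB/c replicate 1 or 3 or NOD.H-2b replicate 2 or 3 (adjusted p of 0.0686 to 0.084). P2ry10 is known from lymphocytes and P2ry12 and P2ry13 from microglia, macrophages and platelets. At 6M P2ry10 averaged 0.403 ± 0.223 CPM for BALB/c and 28.1 ± 9.04 CPM for NOD.H-2b (SD, n = 3). The B cell, T cell and macrophage lists were higher in the same mice, and their part in these levels was not tested. P2ry1, a Gq-coupled receptor for ADP, was lower (-1.13, -1.16 and -1.04), as was P2rx6 (-1.33, -2.59 and -1.85), with edgeR adjusted p of 0.00376 or less at each age. P2ry1 at 6M was -0.44 (adjusted p = 0.177) when scaled to the epithelial structure list. Adra2a, an adrenergic receptor that lowers cAMP, averaged 0.577 ± 0.115 CPM for BALB/c and 3.61 ± 0.398 CPM for NOD.H-2b at 6M (SD, n = 3; log2 fold change 2.64, edgeR adjusted p = 5.82e-06). It was called at 4M and 6M and not at 2M (0.75, adjusted p = 0.0693), where it was called in 1 fit of all 18 mice (adjusted p = 0.0285) and without NOD.H-2b replicate 3 (adjusted p = 0.0418). Adcyap1r1, the receptor specific for PACAP, was called at 6M (log2 fold change 1.23, adjusted p = 0.000699). Chrm4 was lower at 4M and 6M (-1.30 and -1.32, edgeR adjusted p = 0.0324 and 0.00643), calls that were lost under scaling to the epithelial structure list (adjusted p = 0.0962 and 0.0842), and that at 4M without any 1 of 5 mice, BALB/c replicate 3 being the exception (adjusted p of 0.0543 to 0.164). P2rx3 was lower at 6M (-0.76, adjusted p = 0.0362), lost under the same scaling (adjusted p = 0.503) and without BALB/c replicate 1 or 3 or NOD.H-2b replicate 1 or 3 (adjusted p of 0.0621 to 0.111). Chrm5 had no count in any mouse.

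**Figure D5:**
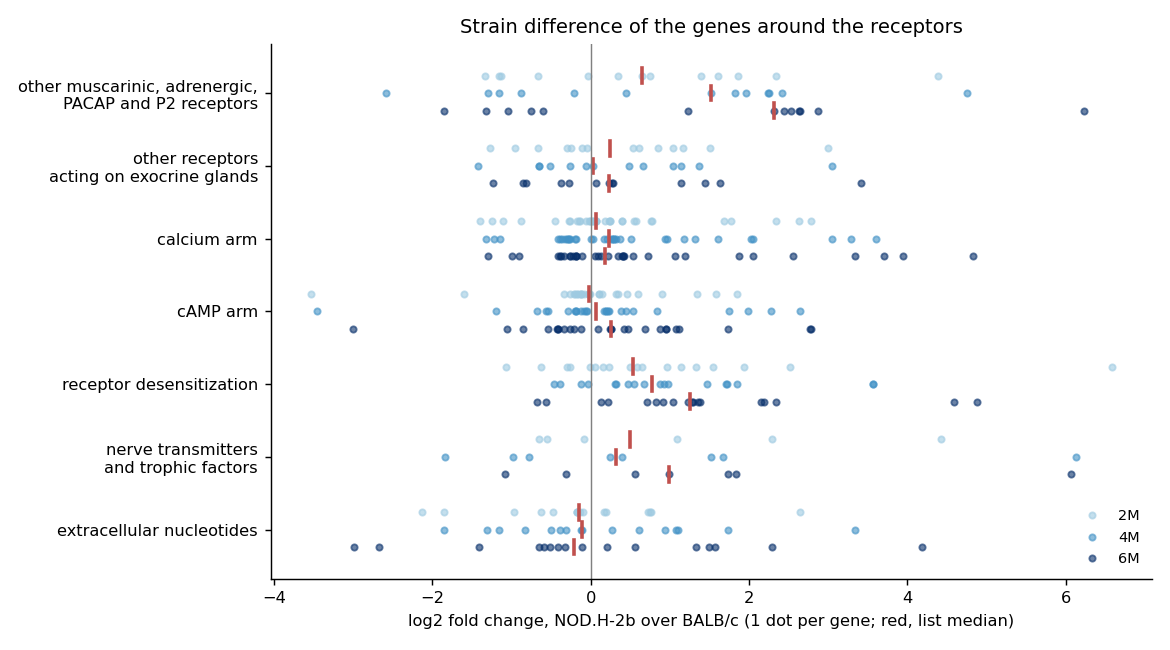
Log2 fold change of NOD.H-2b over BALB/c (horizontal axis) for each tested gene of 7 lists around the receptors, 1 dot per gene, at 2M, 4M and 6M (light to dark blue, top to bottom within a list), with the list median in red and libraries scaled by TMM. The medians of the receptor families rose from 0.65 at 2M to 2.32 at 6M, while those of the calcium arm, the cAMP arm and the extracellular nucleotide genes lay between -0.21 and 0.25.

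Of 16 other receptors that act on exocrine glands, 13 or 14 were tested. At 2M 5 were higher and 3 lower, and at both 4M and 6M 3 were higher and 4 lower, or 7 higher and 3 lower at 4M and 8 higher and 3 lower at 6M when scaled to the epithelial structure list. Ptger4, a prostaglandin E2 receptor that raises cAMP, was higher (log2 fold change 2.99, 3.05 and 3.42), and so was F2rl1, the protease-activated receptor PAR2 (1.05, 1.14 and 1.64). Prlr, the prolactin receptor, was lower (-0.96, -1.42 and -1.23). Each of these was called at every age, with edgeR adjusted p of 0.00367 or less.

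Downstream of Gq, the 34 genes of the calcium arm were all tested. At 2M 14 were higher and 7 lower, at 4M 15 and 9, and at 6M 16 and 7 (20 higher and 2 lower at 4M and 26 and 2 at 6M when scaled to the epithelial structure list), with list medians of 0.07, 0.24 and 0.18. The largest differences were those of Orai2, a subunit of store-operated calcium channels (log2 fold change 2.78, 3.61 and 4.83), Plcb2, a phospholipase C (2.34, 3.05 and 3.70), and Prkcb, a protein kinase C (1.68, 3.29 and 3.95), which are also known from leukocytes. They were called at every age with edgeR adjusted p of 0.00765 or less. Gnaq, the alpha subunit of Gq, was lower (log2 fold change -0.28, -0.32 and -0.38) and Itpr2, an inositol trisphosphate receptor, was higher (0.77, 1.61 and 2.05), whereas Itpr3 did not pass at any age (-0.0018, 0.0080 and -0.11). These last 3 genes were named after their values were seen.

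Of the 28 genes of the cAMP arm, 26 were tested, with 6 higher and 4 lower at 2M, 6 and 7 at 4M, and 12 and 9 at 6M. Scaled to the epithelial structure list, 16 were higher and 2 lower at 4M, and 18 and 2 at 6M. With TMM scaling the numbers at 2M lay near the shares of all genes (22.5% higher and 17.2% lower). So did the number higher at 4M (23.4% of all genes). Rapgef3, which encodes the cAMP sensor Epac1, had 87.3 ± 4.38, 82.6 ± 1.81 and 72.8 ± 5.29 CPM at 2M, 4M and 6M for BALB/c and 7.31 ± 0.559, 7.46 ± 1.64 and 8.88 ± 2.00 CPM for NOD.H-2b (SD, n = 3). Its log2 fold change of -3.54, -3.46 and -3.01 (edgeR adjusted p of 1.51e-06 or less) was larger in size than that of any of the receptors tested at the same age. Adcy7, an adenylyl cyclase (1.58, 2.27 and 2.78), and Pde7a, a cAMP phosphodiesterase (0.90, 1.99 and 2.77), were higher at each age. Pde7a at 2M was lost without any 1 of the BALB/c mice (adjusted p of 0.0514 to 0.055).

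Of the 18 measured genes of receptor desensitization (kinases, arrestins and RGS proteins), 9 were higher and 3 lower at 2M, 9 and 1 at 4M, and 13 and 1 at 6M (13 higher and 0 lower at 4M and 16 and 0 at 6M when scaled to the epithelial structure list), with medians of 0.54, 0.77 and 1.26. The B cell, T cell and macrophage lists were higher in the same NOD.H-2b mice, and their part in these levels was not tested. Rgs1, Rgs10 and Rgs14, which speed the inactivation of G proteins, were higher at each age, Rgs14 by 2.51, 3.56 and 4.88 on the log2 scale (edgeR adjusted p of 0.0065 or less). Of the 18 genes that release, degrade or sense extracellular nucleotides and adenosine, 16 were tested, with 3 higher and 7 lower at 2M and 6 and 6 at 4M and 6M (7 higher and 3 lower at 4M and 8 and 3 at 6M when scaled to the epithelial structure list). The adenosine receptors parted: Adora1 (log2 fold change -2.13, -1.85 and -2.99) and Adora2b (-1.85, -1.31 and -2.67) were lower and Adora2a (2.64, 3.34 and 4.19) was higher, each called at every age (edgeR adjusted p of 0.0187 or less). At 4M the call of Adora1 was lost without BALB/c replicate 1 or NOD.H-2b replicate 2 (adjusted p = 0.058 and 0.0619), and that of Adora2b without BALB/c replicate 3 or NOD.H-2b replicate 2 (adjusted p = 0.0512 and 0.0657).

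On the side of the ligands, the nerve genes gave little signal in the RNA of the gland, and the supply of the ligands themselves was not measured. Chat, Slc18a3, Slc5a7, Th, Dbh, Vip and Adcyap1, which make, load or recover acetylcholine and noradrenaline or encode VIP and PACAP, had 0 counts in all 18 mice, which allows up to 3 counts per library. Of the 20 genes of transmitters and trophic factors, 6 to 8 were tested, with 3 higher at each age and 1, 2 and 1 lower at 2M, 4M and 6M (4 higher and 1 lower at 4M and 5 and 0 at 6M when scaled to the epithelial structure list). Ddc, the aromatic amino acid decarboxylase, was higher (log2 fold change 4.42, 6.13 and 6.07), and so was Tac1, the precursor of substance P (2.29, 1.67 and 1.84), both called at each age (edgeR adjusted p of 0.0014 or less). Tac1 stayed low, with 6M means of 1.76 ± 0.136 CPM for NOD.H-2b and 0.502 ± 0.113 CPM for BALB/c (SD, n = 3).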

How the data were processed

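Raw counts per Ensembl gene of 18 mice were deposited by the authors, who depleted ribosomal RNA, sequenced paired reads, trimmed with cutadapt, aligned to GRCm38 with STAR and counted with HTSeq. A second deposited table of log2 normalized values was not used. The annotation release, strand setting and treatment of multiple matches are not given in the sources used here. Names and exon lengths were taken from GENCODE M21. Totals ranged from 49480781 to 103936830 counts. Replicate pairs differed by more than sampling noise (chi-square per gene 17.7 to 91.1), so the 3 mice of a group set the precision, and each counts as a separate mouse.

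Counts were analyzed in R 4.3.3 with edgeR 4.0.16 (TMM, filterByExpr, robust quasi-likelihood test, Benjamini-Hochberg adjustment over all genes tested, threshold 0.05). Strains at 1 age, and ages within a strain, were compared on the 6 mice concerned, and averages over ages and strain by age came from a fit of all 18 mice. Standard errors were the log2 fold change over the square root of F. CPM are relative to the TMM library size of the 18 mice. The numbers of replicates did not pair the mice. Alternatives were DESeq2 1.42.0 (size factors, Wald test), no filter, 1 fit of all mice, the replicate number as a block, scaling to the epithelial structure list and leaving out each mouse. The scripted steps were first tested on simulated data. The 9 receptors, the gene lists and the alternatives were chosen with earlier results of these data known. Beyond the receptors, named genes are, for each list, up to 3 genes ranked by the size of their mean log2 fold change among those called at all 3 ages in 1 direction, receptors of the same families with at least 1 CPM in a group, and the 2 protein-coding genes most correlated with each receptor (on log2 of CPM plus 0.1). Nerve genes at 0, Chrm5, Gnaq, Itpr2 and Itpr3 were added after their values were seen. A gene that this rule names is not reported here.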

Additional observations from a re-analysis of the deposited data

Results flagged for a closer look

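The strain difference of 4 receptors was not the same at 2M and 6M by the test of the change itself, in edgeR's fit of all 18 mice. As the log2 difference between NOD.H-2b and BALB/c at 6M minus that at 2M, the change was -0.57 for Adra1a, -0.38 for P2rx4, -0.40 for P2rx7 and 2.10 for P2ry2. Their edgeR adjusted p-values were 0.0486, 0.0246, 0.0224 and 0.0366. Without NOD.H-2b 2M replicate 1 they were -0.64, -0.38, -0.39 and 2.02 with adjusted p of 0.0557, 0.0569, 0.0532 and 0.0772. Without NOD.H-2b 6M replicate 1 they were -0.55, -0.34, -0.37 and 1.86 with adjusted p of 0.12, 0.0634, 0.0596 and 0.102. The call of Adra1a was also lost with DESeq2 size factors (adjusted p = 0.0618), with no filter (adjusted p = 0.0929) and without BALB/c 2M replicate 1 or 2, NOD.H-2b 2M replicate 3, NOD.H-2b 4M replicate 2 or 3, BALB/c 6M replicate 3 or NOD.H-2b 6M replicate 2 or 3 (adjusted p of 0.0537 to 0.115), so that it held under 10 of 23 alternatives. That of P2ry2 was also lost without BALB/c 2M replicate 1 or 2, NOD.H-2b 2M replicate 2 or BALB/c 6M replicate 2 or 3 (adjusted p of 0.0687 to 0.087), and that of P2rx4 without BALB/c 2M replicate 1 (adjusted p = 0.05). When scaled to the epithelial structure list, the changes became 0.058, 0.24, 0.23 and 2.76.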

How the results depend on the processing

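At 2M, 4M and 6M and averaged over ages, the number of receptors called stayed within 1.5 times of the reported number under every alternative, and Chrm1, Adra1a and Vipr1 kept their direction and their call between strains at each age under every alternative. The receptors behind that number did change. Scaled to the epithelial structure list, 3 of the 5 calls at 4M and 4 of the 7 at 6M were kept in the same direction. Leaving out each mouse gave 1 to 2 receptors called from 2M to 4M in BALB/c, 1 to 2 from 2M to 6M in BALB/c, 0 to 1 from 2M to 4M in NOD.H-2b, 3 to 5 from 2M to 6M in NOD.H-2b, 0 to 5 for strain by age from 2M to 6M and 0 to 1 for strain by age from 2M to 4M. From 2M to 4M in NOD.H-2b, where 0 were called, 1 fit of all 18 mice called 2 and both no filter and the DESeq2 Wald test called 1. For strain by age from 2M to 4M, where 0 were called, scaling to the epithelial structure list called 2, both higher. That scaling called 5744 of 19117 genes in this comparison (5644 higher and 100 lower). The DESeq2 Wald test called 1 receptor there. The strain by age change of Chrm3 from 2M to 6M was called without BALB/c 2M replicate 3, BALB/c 4M replicate 2 or 3, NOD.H-2b 4M replicate 1 or NOD.H-2b 6M replicate 2 (adjusted p of 0.0322 to 0.0489). The cause of these changes was not tested.

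Every reversal was under scaling to the epithelial structure list, which raised the values of NOD.H-2b at 4M and 6M. P2rx4 and P2rx7 between strains became 0.24 and 0.12 at 4M, 0.21 and 0.29 at 6M, and 0.14 and 0.16 averaged over ages. From 2M to 6M in NOD.H-2b, Chrm3, Vipr1, P2rx4 and P2rx7 became 0.14, 0.025, 0.25 and 0.35. For strain by age from 2M to 6M, Chrm3, Adra1a, Vipr1, P2rx4 and P2rx7 became 0.34, 0.058, 0.51, 0.24 and 0.23, and from 2M to 4M P2rx4 became 0.27. The replicate numbers did not pair the mice (correlation of deviations between same-numbered mice of the 2 strains -0.0616 to 0.124), and with the replicate block every number of receptors called stayed within 1.5 times, 5 becoming 4 from 2M to 6M in NOD.H-2b, where P2rx7 was at -0.21 (adjusted p = 0.0804). With the block, the calls of Chrm4, Orai2 and Adora1 at 4M were also lost (adjusted p = 0.0701, 0.0506 and 0.0523). Depth limits Adra1b, Vipr2 and P2ry2, at 58 counts or fewer in every mouse.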
